A study of Homo sapiens with 8 samples.

Results

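The 50 mitotic and G2/M genes described here were a list of symbols of genes whose products act in the G2 phase and in mitosis. The list was chosen by function, with earlier results of these data known. Each gene was matched through its RefSeq transcripts in the deposited table. All 50 were among the 25166 genes with a symbol. RNA sequencing measured them in HMLE, a mammary epithelial cell line of human origin made immortal in culture. All cells had been transduced with a lentivirus and selected with puromycin at 0.5 µg/mL. Cells of the first kind carried a scrambled shRNA (SCR) and those of the other kind 1 shRNA aimed at the transcription factor gene SOX4, and each kind was kept without treatment or exposed to TGF-β for 16 h. Each of the 4 groups had 2 libraries. A single hairpin does not separate loss of SOX4 from other effects of that hairpin, and the dose of TGF-β is not used here.

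Cyclin A and cyclin B with CDK1 drive cells from G2 into mitosis. Polo-like and Aurora kinases, kinesins and kinetochore proteins then build the spindle and attach chromosomes to it, and the anaphase-promoting complex with CDC20 releases separase so that sister chromatids part. The genes are transcribed late in the cycle, controlled largely by the repressing DREAM complex and the B-MYB and FOXM1 activators. These reach them through a promoter element called the CHR, often downstream of CCAAT boxes bound by NF-Y. TGF-β is known as an inhibitor of the epithelial cell cycle that acts mainly in G1. In RNA from a whole culture, fewer cells in G2 or mitosis and less of an RNA per cell cannot be told apart.

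The promoters showed what most of these genes share in sequence. RefSeq (GRCh38.p14) gave a window of 250 bases before to 50 bases after the start for 44 of the 50 genes. AURKA, TTK, TPX2, BIRC5, UBE2C and FOXM1 had no entry. The CHR letters TTTGAA or TTCGAA, on either strand, stood in 34 of the 44 (77.3%), against 19.5% of the 27305 genes with a window and 13.4% of 5694 fitted genes. Counting only matches from 100 bases before the start onward, 32 of the 44 (72.7%) held them, against 9.09% and 5.62%. CCAAT on either strand stood in 35 of the 44 (79.5%), against 39.7% and 40.7%. Both motifs stood in 27 of the 44 (61.4%), against 7.85% and 5.81%. The motifs were searched independently, so that a base may belong to both, and a match is a description of letters, not a shown binding site.

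The windows of 5 members described below are shown as examples that carry the CHR letters. Other members with these letters, such as TOP2A, KIF11, KIF18A, NCAPG, NDC80 and SPC25, are not shown. Capitals mark the CHR letters TTTGAA. On the opposite strand these read TTCAAA. Capitals also mark CCAAT, which reads ATTGG on the opposite strand. In CCNB2, a cyclin B, the CHR begins 29 bases before the start, and the nearest of its 4 CCAAT boxes begins 54 bases before it. PLK1, a kinase of mitotic entry, has the CHR at the same distance and 1 CCAAT at 73 bases. ESPL1, separase, has the CHR at 31 bases and CCAAT on the opposite strand at 48. CDC20 has CHR letters at 65 and, on the opposite strand, at 178 bases. SAPCD2, a regulator of spindle orientation, has the CHR on the opposite strand at 13 bases and CCAAT at 65.
CCNB2 (chr15:59104896-59105195, plus strand): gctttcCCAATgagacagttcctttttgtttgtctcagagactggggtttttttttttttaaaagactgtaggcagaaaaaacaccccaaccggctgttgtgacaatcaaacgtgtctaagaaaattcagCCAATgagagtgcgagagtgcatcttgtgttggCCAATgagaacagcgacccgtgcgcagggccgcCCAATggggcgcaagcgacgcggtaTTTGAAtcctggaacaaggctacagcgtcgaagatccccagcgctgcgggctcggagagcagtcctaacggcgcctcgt
PLK1 (chr16:23678639-23678938, plus strand): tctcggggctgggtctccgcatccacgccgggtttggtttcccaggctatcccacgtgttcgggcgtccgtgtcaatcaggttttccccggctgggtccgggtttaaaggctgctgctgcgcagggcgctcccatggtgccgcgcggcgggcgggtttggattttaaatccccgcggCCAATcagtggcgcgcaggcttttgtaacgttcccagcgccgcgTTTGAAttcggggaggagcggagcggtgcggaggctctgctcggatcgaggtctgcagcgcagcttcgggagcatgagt
ESPL1 (chr12:53268049-53268348, plus strand): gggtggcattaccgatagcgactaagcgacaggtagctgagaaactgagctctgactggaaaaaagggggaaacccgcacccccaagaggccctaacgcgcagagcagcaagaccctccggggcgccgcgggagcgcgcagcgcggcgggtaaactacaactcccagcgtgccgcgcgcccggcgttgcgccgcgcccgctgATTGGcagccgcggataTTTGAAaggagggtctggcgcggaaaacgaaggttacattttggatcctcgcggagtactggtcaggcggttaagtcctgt
CDC20 (chr1:43358731-43359030, plus strand): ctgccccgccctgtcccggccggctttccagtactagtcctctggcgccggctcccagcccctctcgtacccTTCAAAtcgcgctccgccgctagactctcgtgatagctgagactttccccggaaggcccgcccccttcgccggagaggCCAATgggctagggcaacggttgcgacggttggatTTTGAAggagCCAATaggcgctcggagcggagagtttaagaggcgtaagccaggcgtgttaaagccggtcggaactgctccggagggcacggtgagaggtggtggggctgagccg
SAPCD2 (chr9:137070508-137070807, minus strand): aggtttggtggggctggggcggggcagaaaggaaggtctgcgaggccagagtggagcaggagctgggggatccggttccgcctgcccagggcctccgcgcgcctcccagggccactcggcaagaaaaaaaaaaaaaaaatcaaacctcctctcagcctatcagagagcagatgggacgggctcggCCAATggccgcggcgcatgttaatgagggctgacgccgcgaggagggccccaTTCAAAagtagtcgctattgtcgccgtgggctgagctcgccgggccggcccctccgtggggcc
The windows of CCNB1, CCNA2 and KIF20A, described below, held CCAAT but not the CHR letters. That says only that these letters are not in the window.

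Expression was given as FPKM, reads scaled to the length of the transcript and the size of the library. Many cells of the deposited table had lost their decimal mark. Values were restored from the whole number of reads behind them, with a prior that favours similar values over the libraries. This settled 7128 genes, among them 28 of the 50 members, 19 with 1 transcript and 9 as the sum of 2 transcripts. Only these 28 passed into the main test. For the other 22 a leading transcript was read, and these are described separately below. For most of them the level is not settled, and the possible readings can differ by a factor of 10 or more. Libraries corresponded to 12.6 M to 16.8 M reads, of which 5.78 M to 7.71 M fell in the fitted genes, and a fitted member had 54 (SPC24) to 8462 (TOP2A) reads in a library. SOX4 was at 8.74 and 8.04 FPKM in untreated scrambled-shRNA libraries and at 0.923 and 1.02 in untreated SOX4-shRNA libraries (log2 difference -2.25 ± 0.13, SE, limma adjusted p = 0.000166). Among the epithelial markers, EPCAM (55.8 to 114 FPKM) and CDH1 (74.1 to 95.4 FPKM) were high in all 8 libraries. By a leading transcript, KRT5 (2886 to 3945 FPKM), KRT14 (1446 to 2875) and KRT18 (408 to 622) also read high. KRT8 (3.52 to 4.73 FPKM) and TP63 (3.04 to 4.69) read low. Their decimal marks are not settled and allow up to 473 and 469 FPKM. Of the markers of other cell types, PECAM1, VWF, KDR, CDH5, PTPRC, CD3E, LUM and PDGFRA stayed at or below 0.168 FPKM, and CDH5 and CD3E were listed at 0. CD14 reached 0.436 FPKM. The fibroblast gene DCN was read at up to 1.11 FPKM, with a decimal mark that is not settled and allows up to 111. The mesenchymal genes THY1 (37.8 to 90.5 FPKM), COL3A1 (0.884 to 4.11) and PDGFRB (0.514 to 2.18) and the lysosomal gene CD68 (3.36 to 9.94) were detected, and their part in the results was not tested.

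Libraries of a group differed in a way that followed base composition. Most of the fitted members lay below the median GC content of the fitted genes, 48.5%. CDC20, PLK1, SPC24, INCENP, CDCA8, ESPL1 and SAPCD2 lay above it. The GC content of the fitted members' transcripts ran from 35.4% in CENPE to 66.5% in SAPCD2. Over 4446 well expressed genes the log2 difference between replicate 2 and replicate 1 went with GC content at r = -0.65 in untreated and 0.56 in TGF-β-treated scrambled-shRNA cells, and at -0.84 and 0.83 in SOX4-shRNA cells. Over 27 of the members the same r was -0.76, 0.56, -0.93 and 0.84. These are correlations across genes of the same pair of libraries, and genes are not independent replicates. In SOX4-shRNA cells the trend ran in opposite directions without and with TGF-β. TOP2A, at 38.9% GC, was thus 74.4 and 98.2 FPKM without TGF-β and 77.2 and 57.5 FPKM with it, while CDC20, at 57.9% GC, was 213 and 169 FPKM without and 160 and 198 FPKM with it.

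**Figure D1:**
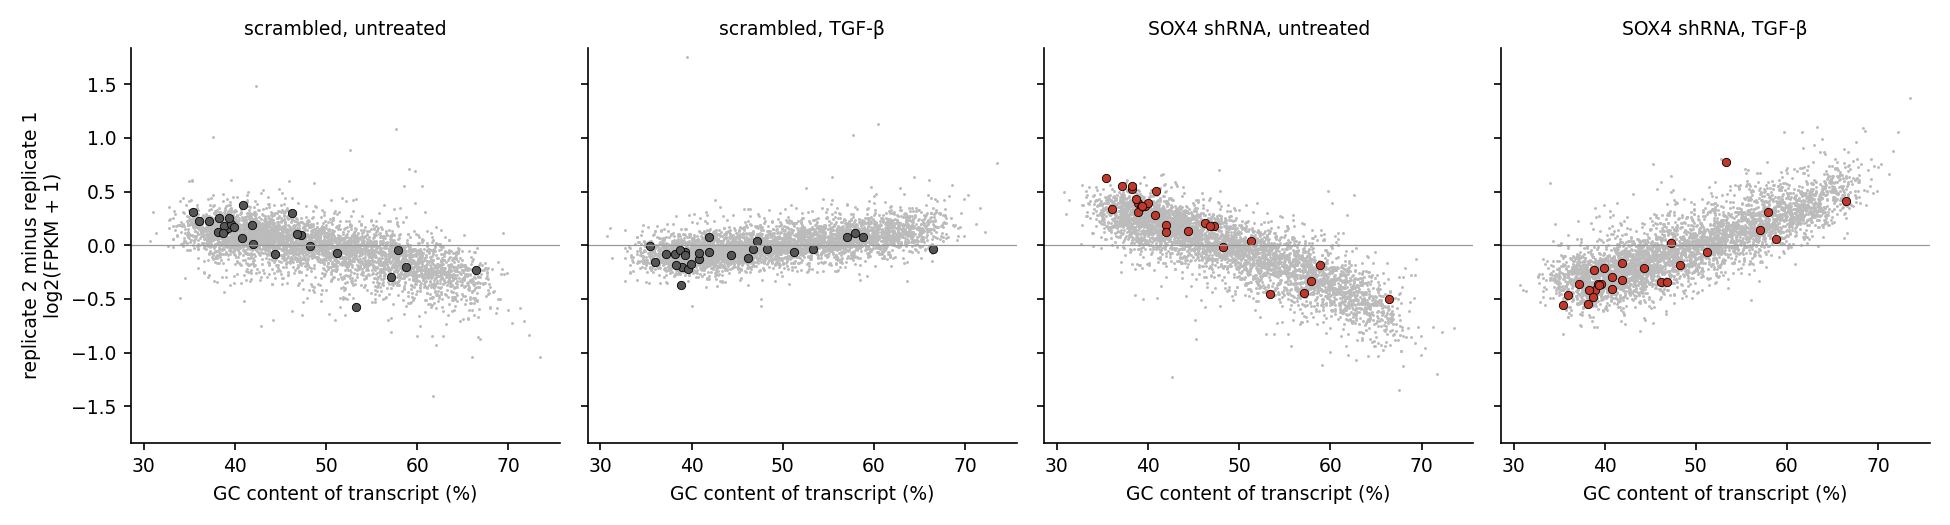
Difference of log2(FPKM + 1) between replicate 2 and replicate 1 (y axis) against the GC content of the transcript in percent (x axis) in each of the 4 groups; grey dots are 4446 genes and large dots 27 of the mitotic and G2/M genes. The cloud slopes down in both untreated groups and up in both TGF-β-treated groups, most steeply in SOX4-shRNA cells.

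Each comparison is therefore given on the values as restored, which was the planned test (planned for genes with 1 transcript, with the sums of 2 transcripts added after seeing the data), and after dividing each library by its trend with GC content, an alternative chosen after seeing the data. The correction lowered the SD of the replicate difference from 0.206 to 0.155, 0.134 to 0.111, 0.307 to 0.163 and 0.303 to 0.167 log2 units in the order of groups above. It also removes any true difference between groups that follows GC content. Fold changes are on the log2(FPKM + 1) scale, which understates changes of low genes, with the SE of the fit. A gene is said to have risen or fallen where limma's Benjamini-Hochberg adjusted p over all fitted genes was under 0.05. Whether the 2 libraries of a group are separate cultures is not said by the labels, so p-values reflect the spread of these libraries alone, and that spread may be technical.

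With TGF-β in scrambled-shRNA cells, all 28 fitted members were lower (27 with median scaling or voom, where KIF14 turned), and 2 fell in the planned test: SAPCD2 and CCNB1. Without the second untreated scrambled-shRNA library 23 of the 28 were lower, and 27 without the second treated one. The median of the 28 log2 differences was -0.30, against -0.03 over all fitted genes, of which 55.2% were lower. Of all genes tested 2.14% fell and 4.96% rose. In 22 of the 28 both treated libraries were below both untreated ones, against 34.6% of all fitted genes. After the GC correction 16 of the 28 fell and 0 rose, where 12.1% of all genes tested fell and 17.4% rose, and the median stayed at -0.30 against 0.00 over all genes. Without any 1 of the 4 scrambled-shRNA libraries the planned test called 0 members, and without either treated SOX4-shRNA library it called 5. The corrected count was 7 without the second treated scrambled-shRNA library and 10 without the first treated or the second untreated one.

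In SOX4-shRNA cells TGF-β gave the same direction, again with all 28 lower and a median of -0.33, against -0.04 over all fitted genes, of which 55.9% were lower. Without the second untreated SOX4-shRNA library 25 were lower, 26 without the second treated one and 27 without either first one. SAPCD2 alone fell in the planned test, where 1.95% of all genes tested fell and 5.32% rose. Both treated libraries were below both untreated ones in 13 of the 28, against 23.9% of all fitted genes. With the correction 16 fell and 0 rose, where 12.4% of all genes tested fell and 16.6% rose, with a median of -0.27 against -0.01. The median rested in part on the second libraries of each SOX4-shRNA group. It was -0.18 without the second untreated and -0.21 without the second treated library, and the corrected count was 7 without either of these. The call of SAPCD2 as restored was lost without either treated scrambled-shRNA library or either first SOX4-shRNA library (limma adjusted p between 0.0643 and 0.0851). Fitting all kept genes, or genes without a filter on low values, called 0 members in either kind of cell. The compared groups alone called 8 members in scrambled-shRNA cells, where 1362 of the 7128 fitted genes were called. In SOX4-shRNA cells they called 0 members and 131 genes.

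**Figure D2:**
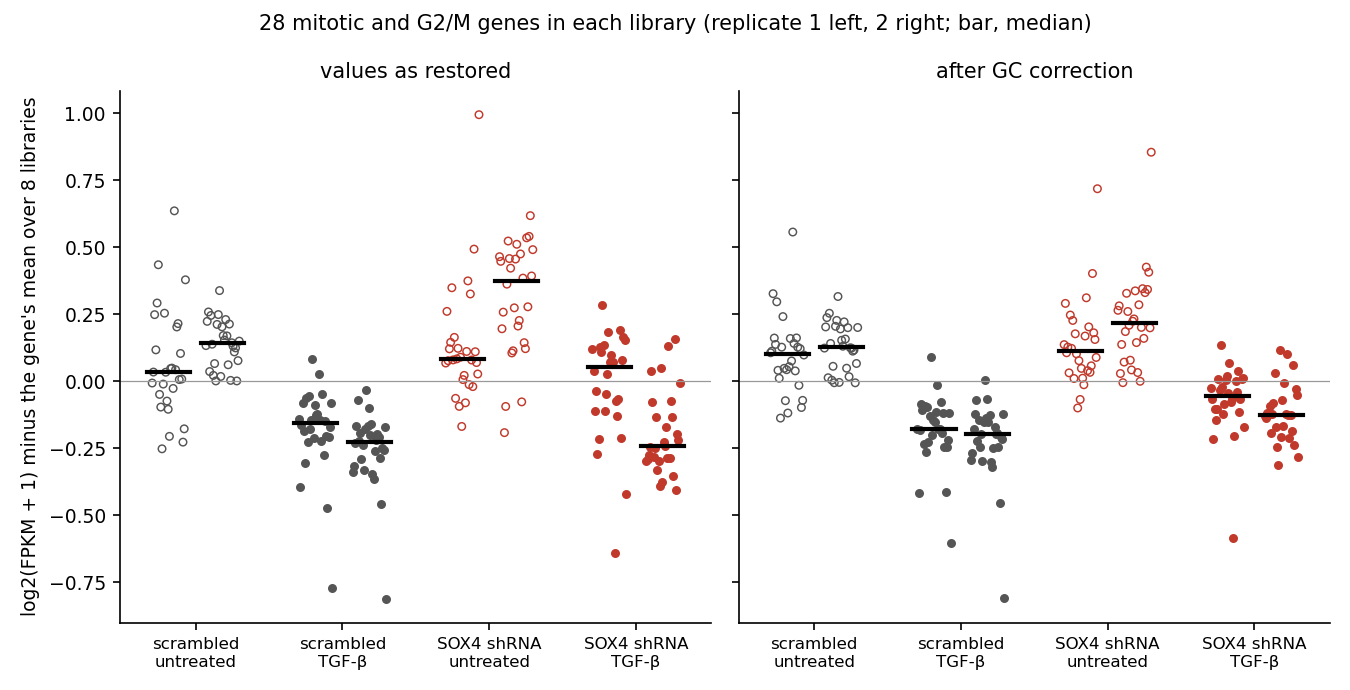
Level of each of the 28 fitted genes in each library, as log2(FPKM + 1) minus the gene's mean over the 8 libraries (y axis), by group (x axis), before (left) and after (right) the GC correction; dots are genes and bars medians. After the correction the library medians are 0.10 to 0.22 in the 4 untreated libraries and -0.05 to -0.20 in the 4 treated ones.

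Library by library the members' medians differed between the replicates of SOX4-shRNA cells, and less so after the GC correction. As restored, the median of the 28 genes' deviations from their own means was 0.03 and 0.14 in untreated scrambled-shRNA libraries, -0.16 and -0.23 with TGF-β, 0.08 and 0.37 in untreated SOX4-shRNA libraries, and 0.05 and -0.24 with TGF-β. The first TGF-β-treated SOX4-shRNA library thus lay among the untreated ones, with 16 of the 28 genes above their mean. Corrected, it was at -0.05 with 9 of 28 above, and the second at -0.13 with 4 of 28. The TGF-β-treated scrambled-shRNA libraries had 1 of 28 above in each, and the untreated libraries 22 to 26.

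Below, values are given in the order of replicates 1 and 2 for untreated and then TGF-β-treated scrambled-shRNA cells, followed by untreated and TGF-β-treated SOX4-shRNA cells. SAPCD2 had the largest fold change of the fitted members in both TGF-β comparisons. It lies at chr9:139956579-139965009 on the minus strand of GRCh37 with 6 exons and encodes a protein that acts on the orientation of the mitotic spindle. It measured 17.1 and 14.4, then 7.13 and 6.92 FPKM in scrambled-shRNA cells, and 26.7 and 18.5, then 9.38 and 12.8 FPKM in SOX4-shRNA cells. Every treated library was below every untreated one. With TGF-β it fell by 1.06 ± 0.20 log2 units (limma adjusted p = 0.0207) in the scrambled-shRNA and 0.96 ± 0.20 (adjusted p = 0.0266) in the SOX4-shRNA background. Corrected, the differences were -0.86 ± 0.09 and -1.01 ± 0.09. Antisense genes overlap SAPCD2. How reads were assigned by strand is not given in the sources used here, so the reads of overlapping genes cannot be told apart. The same holds for CCNA2, which overlaps EXOSC9, for PLK1, which overlaps ERN2, and for KIF20A, which overlaps BRD8 and CDC23.

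Among the cyclins, CCNB1, the B-type cyclin that activates CDK1 at mitotic entry (chr5:68462962-68474072, plus strand, 9 exons), measured 150.3 and 151 FPKM untreated and 113 and 108 with TGF-β in scrambled-shRNA cells. In SOX4-shRNA cells it measured 133 and 145, then 117 and 104 FPKM. The groups did not overlap in either kind of cell. CCNB1 fell in scrambled-shRNA cells by 0.45 ± 0.10 (limma adjusted p = 0.0414). The SOX4-shRNA difference was -0.33 ± 0.10 (adjusted p = 0.101) as restored and -0.24 ± 0.07 (adjusted p = 0.0288) after the GC correction. CCNA2, cyclin A2, which acts in S phase and G2 (chr4:122737599-122745038, minus strand, 8 exons), measured 55.2 and 63.0, then 40.7 and 43.0 FPKM in scrambled-shRNA cells. It measured 64.7 and 73.8, then 55.3 and 43.9 FPKM in SOX4-shRNA cells, again with every treated library of a cell kind below both untreated ones. Its differences were -0.49 ± 0.14 (adjusted p = 0.0802) and -0.48 ± 0.14 (adjusted p = 0.0839), and after the GC correction it fell by 0.50 ± 0.07 and 0.39 ± 0.07. CCNB2 fell in SOX4-shRNA cells after the correction (-0.25 ± 0.07, adjusted p = 0.0235), beside -0.19 ± 0.07 (adjusted p = 0.0602) in scrambled-shRNA cells.

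Of the mitotic kinases, PLK1, which acts in mitotic entry, spindle assembly and cytokinesis (chr16:23688977-23701688, plus strand, 10 exons), measured 149 and 121, then 88.5 and 93.7 FPKM in scrambled-shRNA cells. With SOX4 shRNA the levels were 139.9 and 103, then 94.2 and 104 FPKM. The groups were apart in scrambled-shRNA cells and overlapped in SOX4-shRNA cells. The difference was -0.55 ± 0.17 (limma adjusted p = 0.085) and -0.27 ± 0.17 (adjusted p = 0.363). After the correction for GC content, which is 57.1% in this transcript, PLK1 fell by 0.45 ± 0.08 and 0.31 ± 0.08. TTK, the spindle checkpoint kinase MPS1, fell by 0.21 ± 0.07 in SOX4-shRNA cells after the correction, and its scrambled-shRNA difference was -0.14 ± 0.07 (adjusted p = 0.158).

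Of the genes of the chromosomal passenger complex, the Aurora B machinery that corrects faulty attachments, CDCA8 (borealin) fell in scrambled-shRNA cells after the correction (-0.30 ± 0.07), with -0.18 ± 0.07 (limma adjusted p = 0.0901) in SOX4-shRNA cells. INCENP, its scaffold, fell in SOX4-shRNA cells (-0.38 ± 0.09), with -0.22 ± 0.09 (adjusted p = 0.0801) in scrambled-shRNA cells. Such crossings of the threshold do not show a difference between the kinds of cell, which is tested by the interaction below.

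At the metaphase-to-anaphase step, CDC20, the activator of the anaphase-promoting complex (chr1:43824652-43828874, plus strand, 11 exons), measured 236 and 229, then 169 and 184 FPKM in scrambled-shRNA cells. In SOX4-shRNA cells it measured 213 and 169, then 160 and 198 FPKM. Treated and untreated libraries were apart in the former and interleaved in the latter. As restored the differences were -0.40 ± 0.15 (limma adjusted p = 0.147) and -0.09 ± 0.15 (adjusted p = 0.768), and the latter turned positive (0.06 to 0.08) without either first SOX4-shRNA library. After the correction CDC20 fell in scrambled-shRNA cells (-0.29 ± 0.07) and differed by -0.13 ± 0.07 (adjusted p = 0.177) in SOX4-shRNA cells. ESPL1, separase, the protease that opens cohesin (chr12:53662083-53687422, plus strand, 31 exons), measured 6.73 and 6.76, then 4.18 and 4.24 FPKM in scrambled-shRNA cells. Its SOX4-shRNA libraries had 9.12 and 7.72, then 5.21 and 7.02 FPKM. The groups did not overlap in either kind of cell, and the differences were -0.57 ± 0.15 (adjusted p = 0.0565) and -0.41 ± 0.15 (adjusted p = 0.135). After the correction ESPL1 fell by 0.48 ± 0.09 and 0.44 ± 0.09.

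**Figure D3:**
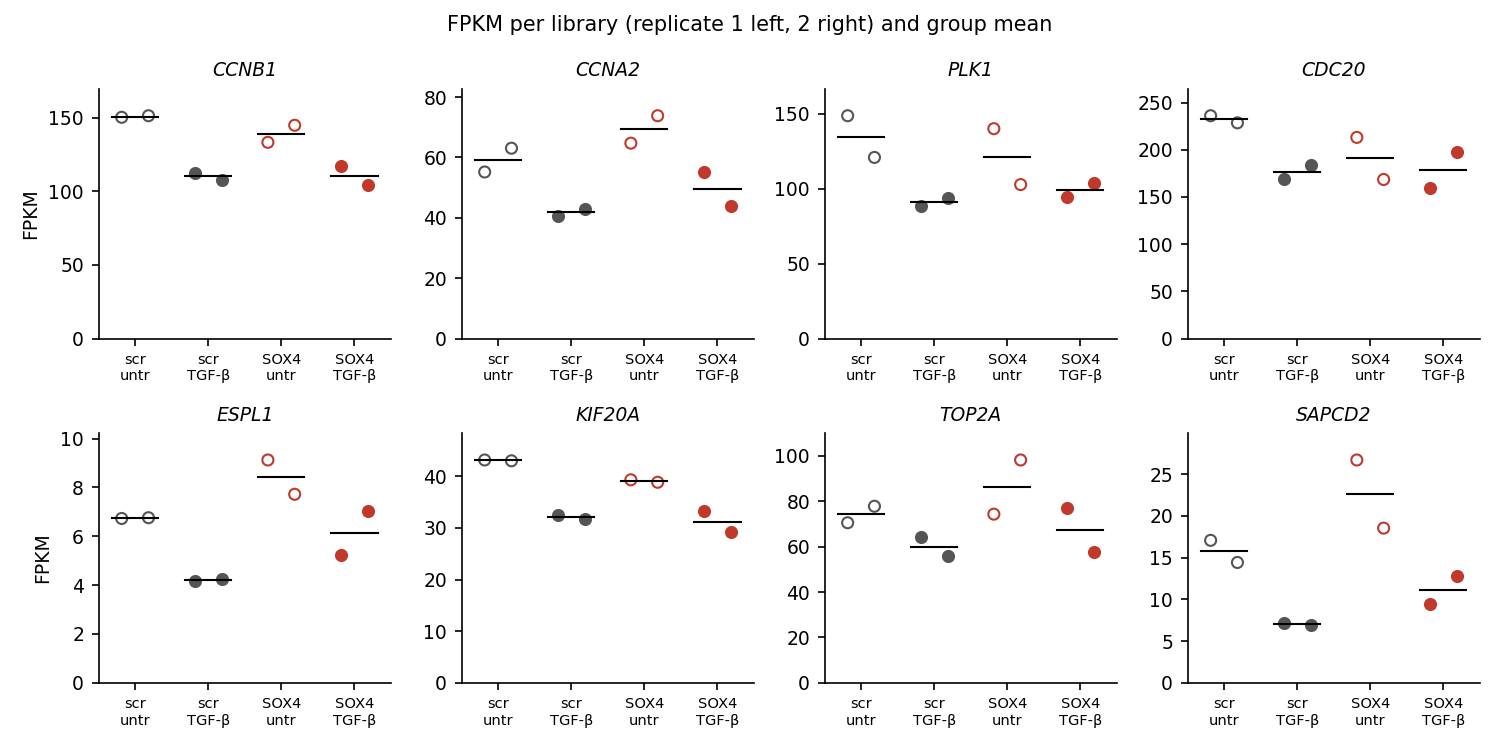
FPKM (y axis, from 0) of 8 members in each of the 8 libraries by group (x axis: scr, scrambled shRNA; untr, untreated), as restored; dots are libraries and bars group means. CCNB1, CCNA2, ESPL1, KIF20A and SAPCD2 have both treated libraries below both untreated ones in each kind of cell, while CDC20 overlaps in SOX4-shRNA cells.

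Of the 5 fitted kinesins, the motors that sort and move microtubules in the spindle, 3 fell in both kinds of cell after the GC correction and 2 in neither. KIF20A, a kinesin of the central spindle (chr5:137514408-137523412, plus strand, 19 exons), measured 43.2 and 43.0, then 32.5 and 31.7 FPKM in scrambled-shRNA cells. In SOX4-shRNA cells it measured 39.3 and 38.9, then 33.3 and 29.2 FPKM. Replicates were close, and treated libraries were below untreated ones in both. The differences were -0.41 ± 0.11 (limma adjusted p = 0.0566) and -0.32 ± 0.11 (adjusted p = 0.116), and corrected it fell by 0.37 ± 0.06 and 0.27 ± 0.06. KIF18A, which aligns chromosomes, fell by 0.43 ± 0.08 and 0.29 ± 0.08, and KIF11, the motor that separates the poles, by 0.29 ± 0.06 and 0.33 ± 0.06, after the correction. Corrected KIF18A levels were 13.4 and 14.2, then 10.3 and 9.74 FPKM in scrambled-shRNA cells, and 13.9 and 14.3, then 12.0 and 10.7 FPKM in SOX4-shRNA cells. KIF14 and KIF4A did not pass in any fit (-0.17 to -0.05 after the correction). The sign for KIF14 turned positive with median scaling, with the voom model on the reads and without some libraries.

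Among the 7 centromere and kinetochore genes the subunits of the NDC80 complex, which binds microtubules, showed these differences. NDC80 fell by 0.37 ± 0.08 and 0.32 ± 0.08 after the GC correction and SPC25 by 0.30 ± 0.08 and 0.28 ± 0.08. SPC25, which had the smallest p of these 7 genes as restored, measured 18.3 and 20.7, then 17.1 and 15.1 FPKM in scrambled-shRNA cells, and 17.6 and 23.4, then 16.8 and 14.4 FPKM with SOX4 shRNA. Its treated libraries were the lower ones in each kind of cell, by 16.6% and 22.4% of FPKM + 1 (limma adjusted p = 0.368 and 0.213). Corrected, NDC80 measured 24.4 and 25.9, then 20.3 and 18.3 FPKM with the scrambled and 26.1 and 28.4, then 22.1 and 21.2 FPKM with the SOX4 shRNA. NUF2 fell in scrambled-shRNA cells (-0.35 ± 0.09, adjusted p = 0.0241), beside -0.05 ± 0.09 in SOX4-shRNA cells. SPC24, the member with the fewest reads, gave -0.52 ± 0.23 (adjusted p = 0.115) and -0.40 ± 0.23 (adjusted p = 0.221). CENPA, the centromeric histone, CENPE, a kinetochore motor, and CENPF were lower in both but did not pass.

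Of the spindle proteins other than SAPCD2, DLGAP5, which stabilizes kinetochore fibres, fell in scrambled-shRNA cells (-0.37 ± 0.10) and ASPM, a spindle pole protein, in SOX4-shRNA cells (-0.29 ± 0.09), both after the GC correction. TPX2 and CKAP2L did not pass in either. Among genes of chromosome structure, TOP2A, the topoisomerase that untangles sister chromatids (chr17:38544777-38574148, minus strand, 35 exons), measured 70.6 and 77.8, then 64.2 and 55.8 FPKM in scrambled-shRNA cells. In SOX4-shRNA cells it measured 74.4 and 98.2, then 77.2 and 57.5 FPKM. The groups were apart in scrambled-shRNA cells, whereas the first treated SOX4-shRNA library exceeded the first untreated one. TOP2A differed by -0.30 ± 0.18 (limma adjusted p = 0.354) and -0.35 ± 0.18 (adjusted p = 0.284) as restored. After the correction it fell by 0.35 ± 0.07 and 0.28 ± 0.07, and the condensin subunit NCAPG by 0.35 ± 0.08 and 0.41 ± 0.08. NCAPG measured 26.8 and 26.7, then 20.5 and 21.1 FPKM, and 27.9 and 31.4, then 23.4 and 20.6 FPKM after the correction.

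Corrected for GC content, 12 of the 28 genes fell in both kinds of cell, where 7.93% of all genes tested in both fell in both: CCNA2, CCNB1, ESPL1, KIF11, KIF18A, KIF20A, NCAPG, NDC80, PLK1, SAPCD2, SPC25 and TOP2A. The 12 were 75% of the 16 that fell in each kind of cell. Over all genes the matching shares were 65.7% of those that fell in scrambled-shRNA and 63.5% of those in SOX4-shRNA cells. Each count of 16 dropped to 7 without 1 library, as given above. The difference in TGF-β response between the 2 kinds of cell was tested by the interaction. By limma 0 of the 28 members passed as restored, and 0 had an unadjusted p under 0.05. Of all 7075 genes tested 0 passed as well (0%), and voom on the reads called 0 members. After the correction 0 of the 28 passed and 1 had an unadjusted p under 0.05. The median interaction was -0.01 log2 units as restored and 0.04 after the correction, and its sign depended on single libraries. As restored it was -0.22 without the first and 0.10 without the second treated SOX4-shRNA library, -0.17 and 0.09 without the first and second untreated SOX4-shRNA library, 0.03 and -0.09 without the first and second untreated scrambled-shRNA library, and 0.0066 and -0.07 without the first and second treated one. Corrected, it lay between -0.03 (without the first untreated SOX4-shRNA library) and 0.09 (without the second).

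**Figure D4:**
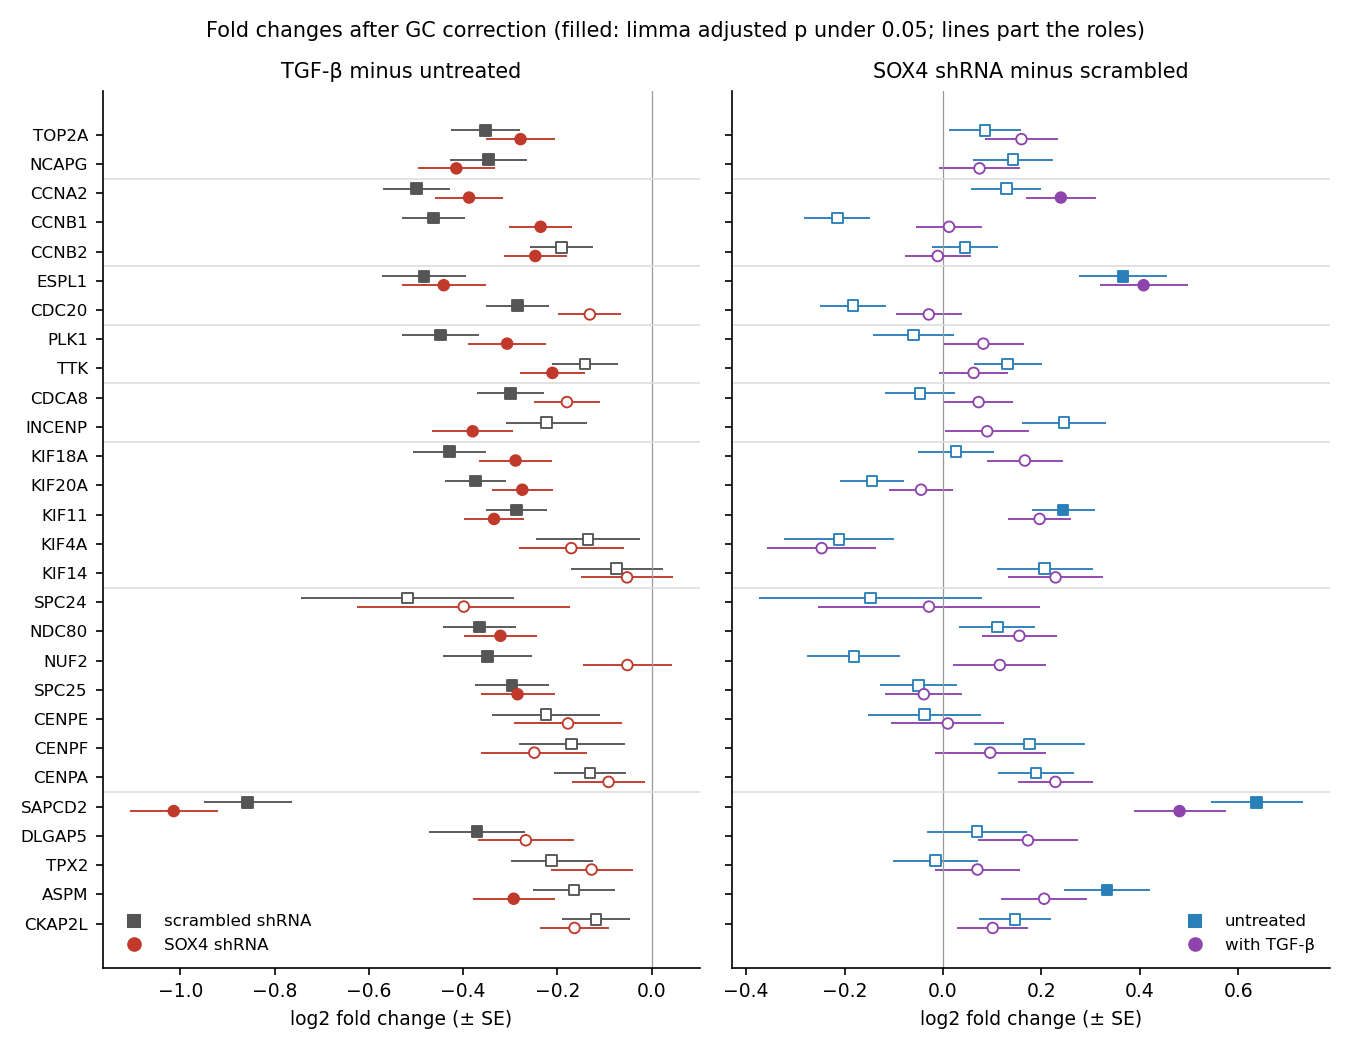
Log2 fold change with its SE (x axis) of the 28 genes (y axis, grouped by role) after the GC correction, for TGF-β against untreated (left) and SOX4 shRNA against scrambled shRNA (right); filled symbols had a limma adjusted p under 0.05. On the left all points lie below 0 and SAPCD2 lies lowest; on the right SAPCD2 and ESPL1 lie highest, filled in both states.

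With SOX4 shRNA 0 of the 28 passed in the planned test in either state. The few that passed after the GC correction were higher, and their number depended on single libraries. Untreated, 0 of the 28 passed in the planned test (1 with an unadjusted p under 0.05, and 0 by voom), where 1.21% of all genes tested rose and 3.34% fell. Members were higher in 20 and lower in 8 (17 and 11 after the GC correction), with a median of 0.17 against -0.00 over all fitted genes. Both knockdown libraries exceeded both controls in 8 of the 28 (28.6%), against 23.7% of all genes. They were below both controls in 4 (14.3%), against 23.0%. The median was 0.03 without the second untreated SOX4-shRNA library and 0.28 without the first. With the correction 4 rose and 0 fell, where 8.98% of all genes rose and 11.0% fell, with a median of 0.08 (0.14 without the first and 0.03 without the second untreated SOX4-shRNA library). That count was 1 without the first untreated scrambled-shRNA or the second untreated SOX4-shRNA library, 2 without any other scrambled-shRNA library and 6 without either treated SOX4-shRNA library.

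SAPCD2 showed the largest of these differences. Corrected for GC content it measured 13.8 and 14.9 FPKM in untreated scrambled-shRNA and 21.8 and 24.0 in untreated SOX4-shRNA libraries. It rose by 0.64 ± 0.09 (limma adjusted p = 0.00228) after the correction, and differed by 0.48 ± 0.20 (adjusted p = 0.238) as restored. ESPL1 measured 6.10 and 6.75, then 8.48 and 8.64 FPKM after the correction and rose by 0.37 ± 0.09 (adjusted p = 0.0216). ASPM, at 20.4 and 21.8, then 24.5 and 29.4 FPKM, rose by 0.33 ± 0.09 (adjusted p = 0.0281). KIF11, at 33.7 and 34.8, then 39.3 and 42.2 FPKM, rose by 0.24 ± 0.06 (adjusted p = 0.0281). In each of these 4 genes both SOX4-shRNA libraries lay above both scrambled-shRNA libraries, as in 29.7% of all genes after the correction. The 4 were picked by passing on these same values, so this adds no separate support. CCNB1 and CDC20 pointed the other way without passing (-0.21 ± 0.07, adjusted p = 0.0545, and -0.18 ± 0.07, adjusted p = 0.0898).

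With TGF-β in both kinds of cell, 0 of the 28 passed in the planned test (2 with an unadjusted p under 0.05, and 0 by voom), where 1.14% of all genes tested rose and 2.89% fell. Members were higher in 22 and lower in 6 (20 and 8 with median scaling), with a median of 0.10 against 0.01. Both SOX4-shRNA libraries were the higher ones in 7, against 23.2% of all genes, and the lower ones in 1, against 23.1%. The median was -0.04 without the first treated SOX4-shRNA library, 0.25 without the second, and 0.05 without the second treated scrambled-shRNA library. With the correction 3 rose and 0 fell, where 7.95% of all genes rose and 10.7% fell. They were SAPCD2 (0.48 ± 0.09, limma adjusted p = 0.0088), ESPL1 (0.41 ± 0.09, adjusted p = 0.0147) and CCNA2 (0.24 ± 0.07, adjusted p = 0.0484). Corrected, SAPCD2 measured 8.09 and 6.89 FPKM in scrambled-shRNA and 11.3 and 10.4 in SOX4-shRNA libraries with TGF-β, all below its untreated levels. The count was 0 without the second treated scrambled-shRNA library, 1 without any other treated library and 2 without any untreated one.

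The 22 members read by a leading transcript are given as percent of that transcript's mean in untreated scrambled-shRNA cells. The reading was not settled for KIF2C in any comparison, for CDC25C in those that use treated SOX4-shRNA cells and for NCAPH in untreated cells with SOX4 shRNA against scrambled shRNA, and these were not tested. When all 12019 kept genes were fitted together, 0 passed in any pairwise comparison as restored, of 21 tested for TGF-β in scrambled-shRNA cells and 20 tested in each other comparison. The share of all kept genes that passed was 2.32% and 3.14% for TGF-β in scrambled-shRNA and SOX4-shRNA cells, and 1.42% and 1.11% for SOX4 shRNA without and with TGF-β. With TGF-β all 21 had a log2 difference below 0 in scrambled-shRNA cells (CDC25C at -0.02, although its mean FPKM was higher) and 18 of 20 in SOX4-shRNA cells, with medians of -0.20 and -0.23. Both treated libraries were below both untreated ones in 14 of the 21 and 8 of the 20, against 30.9% and 22.8% of all kept genes. Corrected, BUB1B, a spindle checkpoint protein, fell in both (-0.45 ± 0.07, limma adjusted p = 0.00994, and -0.42 ± 0.07, adjusted p = 0.0121), where 6.02% and 6.29% of all kept genes fell. BUB1B was the 1 gene that fell of the 21 and 20 tested here, a share no larger than that of all kept genes. Together with the members that have whole reads, 14 of 49 and 10 of 48 members tested fell in this fit.

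MKI67, which encodes the proliferation marker Ki-67, stood at 88.3% and 112%, then 85.7% and 83.5% in scrambled-shRNA cells, and at 112% and 123%, then 97.1% and 91.9% in SOX4-shRNA cells. CDK1, the mitotic kinase itself, stood at 90.9% and 109%, then 85.1% and 80.7%, and at 92.5% and 123%, then 89.1% and 73.7%. For both genes the treated libraries were the lower ones in each kind of cell, and neither passed. AURKA, which matures centrosomes, stood at 98.0% and 102%, then 78.2% and 76.5%, and at 104% and 91.8%, then 85.7% and 60.3%. AURKB, the kinase of the chromosomal passenger complex, stood at 89.5% and 111%, then 66.0% and 58.9%, and at 110.3% and 102%, then 77.0% and 90.8%. Its difference in scrambled-shRNA cells was -0.56 ± 0.14 (limma adjusted p = 0.0964). BUB1B stood at 98.0% and 102%, then 74.3% and 71.1%, and at 103% and 120.5%, then 88.7% and 69.2%.

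BUB1, its checkpoint partner, overlapped between treated and untreated libraries in both kinds of cell, at 84.8% and 115%, then 95.3% and 85.6%, and at 82.7% and 119.7%, then 89.3% and 77.6%. FOXM1, a transcription factor of this gene programme, was the lower in treated libraries, at 98.3% and 102%, then 86.4% and 83.7%, and at 100.2% and 88.7%, then 85.8% and 84.6%. ECT2, which triggers the cleavage furrow, had its treated libraries lower in scrambled-shRNA cells and overlapping in SOX4-shRNA cells, at 99.2% and 101%, then 79.6% and 76.1%, and at 97.2% and 72.8%, then 88.0% and 83.7%. Neither ECT2 nor FOXM1 passed (limma adjusted p = 0.265 and 0.379 in scrambled-shRNA cells). SMC2, a condensin core subunit, lay higher with SOX4 shRNA, at 105% and 95.1%, then 93.8% and 91.0%, against 196% and 165%, then 174% and 111%. Its untreated difference of 0.82 ± 0.21 did not pass (adjusted p = 0.131).

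Genes of neighbouring programmes were read from lists that were chosen with earlier results of these data known. Of 57 other fitted mitotic and G2/M genes, 7 fell with TGF-β in scrambled-shRNA cells as restored (2.14% of all genes) and 0 rose, and 52 were lower (49 with median scaling or voom), with a median of -0.27. They were CDC25A, CCNF, FAM83D, TACC3, CDCA5, NCAPD3 and KIF18B. In SOX4-shRNA cells 4 fell (1.95% of all genes) and 0 rose: CDC25A, FAM83D, ANAPC1 and NCAPD3. CDC25A, a phosphatase that activates CDKs, went from 22.9 ± 1.5 to 14.1 ± 0.20 FPKM (SD, n = 2) and from 23.6 ± 0.081 to 15.3 ± 0.41. With the correction 26 and 29 of the 57 fell, beside 12.1% and 12.4% of all genes, and 0 and 2 rose, beside 17.4% and 16.6%. In the knockdown comparisons 1 fell untreated, the tubulin gene TUBB4B (825 ± 61 to 482 ± 101 FPKM), and 0 with TGF-β by limma. Of all genes tested 3.34% and 2.89% fell. With the correction 3 rose and 3 fell untreated, and 5 rose and 3 fell with TGF-β, where 8.98% and 7.95% of all genes rose and 11.0% and 10.7% fell.

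Among the G1/S and DNA replication genes, which act earlier in the cycle, all 28 fitted genes were lower in each TGF-β comparison (CCNE1 turned in SOX4-shRNA cells under the other scalings), with medians of -0.36 and -0.38, beside -0.30 and -0.33 for the mitotic members. As restored, where 2.14% and 1.95% of all genes fell, 5 fell in scrambled-shRNA cells, MCM2, CHAF1A, GINS2, MCM10 and RFC3, and 7 in SOX4-shRNA cells, RFC3, MCM6, MCM10, CHAF1A, RRM2, GINS2 and PCNA. After the correction 20 and 22 fell, beside 12.1% and 12.4% of all genes, and 0 rose. The difference between the 2 lists was not tested. RRM2, a subunit of ribonucleotide reductase, was the 1 gene of this list called with SOX4 shRNA as restored, and fell in both states, from 149 ± 14 to 92.4 ± 14 FPKM untreated and from 107 ± 3.5 to 60.3 ± 8.7 with TGF-β. As restored 3.34% and 2.89% of all genes tested fell in these comparisons. After the correction 1 of the list rose and 2 fell untreated, and 1 rose and 1 fell with TGF-β. Beside these, 8.98% and 7.95% of all genes rose and 11.0% and 10.7% fell.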

How the data were processed

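RNA from 8 libraries of HMLE cells, 2 in each of 4 groups taken from the titles, was analysed. The libraries came from a stranded kit with ribosomal RNA depletion and were read as single 75-nt reads, per the labels' protocols. A different label gives polyA RNA, which leaves the RNA fraction unsure. The submitters' processing notes name the tools Cuffdiff, Cufflinks 2.2.1 and TopHat2 2.0.9 and the build hg19. The table deposited by the authors holds FPKM, reads scaled to transcript length and library size, for 48175 transcripts, of which 47097 (97.8%) matched a symbol. In 34.1% of its cells the decimal mark was lost, and 13.9% were in a damaged exponent notation and were set to 0. Strand setting, multi-mapping and scaling between libraries: not given in the sources used here. Every column of values was used (0 left out).

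Lost marks were restored where at least 6 of the 8 values of a gene, or 7 for a sum of 2 transcripts, were whole numbers of reads. This held for 5291 of 5670 searched genes with 1 transcript (93.3%; 0 with random last digits) and for 1837 of 2487 sums of 2 transcripts (73.9%; 2 of 498 with random digits). The possible readings were also weighed by a prior that favours similar values over the 8 libraries, most of all within a group. The design named genes with 1 transcript. The sums were added after seeing the data. A fit restricted to 1-transcript genes, as the design has it, is an alternative. Other kept genes are represented by a leading transcript and enter the fit of all kept genes.

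Values were tested as log2(FPKM + 1) in genes with at least 1 FPKM in 2 libraries, using limma 3.58.1 (R 4.3.3). The 4 groups shared 1 empirical Bayes fit with a variance trend and 4 residual degrees of freedom. A call needs an adjusted p under 0.05 (Benjamini-Hochberg over all genes tested in that contrast). Contrasts covered TGF-β within each kind of cell, SOX4 shRNA within each state, and their interaction. The GC correction divided each library by a lowess trend (span 0.3, genes with a mean of at least 5 FPKM) of its log2 difference from the mean library on the GC content of the longest coding GENCODE 44 transcript. It could be made for 6709 fitted genes, among them all 28 fitted members, and for 11118 kept genes. Fits and restoration were tested on simulated data. Gene coordinates are from GENCODE 44 lifted to GRCh37, and promoter windows from RefSeq on GRCh38.p14.

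The members and gene lists were chosen with earlier results of these data known, so nothing here is independent of them. Values in every library are given for members called in the planned test, for the member with the smallest p in each role, and for 13 members fixed by name. Alternatives were 2 pseudocounts, 2 filters, median scaling, all kept genes, limma's voom on the whole reads with TMM scaling, a replicate block, the compared groups alone and leaving out each library. Those added after seeing the data were the GC correction and its variants, a crossed block and the kept genes lacking whole reads.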

Additional observations from a re-analysis of the deposited data

How the results depend on the processing

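The interaction had 0 calls in every alternative run. Log pseudocounts of 0.1 and 0.5 and a fit of 1-transcript genes alone changed no call of a member. Median scaling and voom on the reads turned KIF14 in scrambled-shRNA cells (0.017 each). Calls over all genes by limma were 504 and 515 for TGF-β in scrambled-shRNA and SOX4-shRNA cells, and 323 and 286 for SOX4 shRNA without and with TGF-β, with 2, 1, 0 and 0 members among them. In that order they were 1972, 1938, 1337 and 1246 (16, 16, 4 and 3 members) after the GC correction, 259, 350, 158 and 124 (0 members) with all kept genes, and 8, 6, 12 and 6 (0 members) with only kept genes lacking whole reads. Fits of the compared groups alone called 1362, 131 and 101 of the 7128 fitted genes in the first 3 comparisons, with 8, 0 and 0 of the 28 members. With no filter on low values 0 members were called, and 212 genes with SOX4 shRNA untreated. A minimum of 5 FPKM gave 178 genes with SOX4 shRNA under TGF-β.

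What libraries of equal replicate number share is not said by the labels. Their deviations correlated across genes at -0.25, 0.55, -0.49, -0.38, 0.38 and -0.64 over the 6 pairs of groups. The correlation was positive between the untreated groups (0.55) and between the treated groups (0.38). It was negative in every pair of an untreated and a treated group. The cause was not tested. The replicate block called 208, 291, 161 and 140 genes and 0 members. With the numbers crossed between untreated and treated groups, the block called 1788, 1668, 1193 and 951 genes and 14, 14, 3 and 2 members.

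Leaving out 1 library leaves a group of 1 that is assumed to vary like the others. It gave 24 to 582, 237 to 416, 44 to 346 and 43 to 310 genes, and 0 to 5, 0 to 1, 0 and 0 members. After the GC correction it gave 951 to 2079, 1312 to 1874, 710 to 1382 and 457 to 1248 genes, and 7 to 19, 7 to 15, 1 to 6 and 0 to 2 members. The corrected counts outside 1.5 times were 1210, 1014 and 951 genes and 10, 10 and 7 members in the first comparison, 7 and 7 members in the second, 710, 819 and 735 genes and 1, 2, 2, 2 and 1 members in the third, and 519, 457 and 722 genes and 1, 0, 1 and 1 members in the last. With all kept genes, corrected, 887 and 813 genes were called in the SOX4 shRNA comparisons, with 10 members for TGF-β in SOX4-shRNA cells and 1 for SOX4 shRNA untreated.

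Leaving out 1 library also turned some members' log2 differences with TGF-β, and the cause was not tested. In scrambled-shRNA cells the range over the left-out libraries was -0.147 to 0.107 for KIF14 (0.07 without the second treated library), -0.299 to 0.0092 for CENPE, -0.334 to 0.0426 for CENPF, -0.214 to 0.0142 for ASPM and -0.203 to 0.0516 for CKAP2L, and KIF4A reached 0.00011 after the GC correction. In SOX4-shRNA cells it was -0.262 to 0.0755 for CDC20, -0.553 to 0.0724 for CENPE and -0.279 to 0.0284 for NUF2, and KIF14 reached 0.14 and 0.09 without a second library and 0.0722 and 0.0014 after the correction. PTTG1 turned (0.0043) with all kept genes corrected. Depth limits SPC24 most, at 54 reads in its lowest library.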

Other observations

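Regulators of the mitotic programme and of cell cycle arrest did not all move with the mitotic genes. Of 13 fitted genes of the B-MYB, DREAM and E2F group, 1 fell and 1 rose with TGF-β in each kind of cell as restored. Of all genes tested, 2.14% and 1.95% fell and 4.96% and 5.32% rose in scrambled-shRNA and SOX4-shRNA cells. After the GC correction 3 fell and 1 rose in each, beside 12.1% and 12.4% of all genes that fell and 17.4% and 16.6% that rose. E2F2, an activator of S-phase genes, was 2.2 ± 0.13 FPKM untreated and 0.810 ± 0.093 with TGF-β in scrambled-shRNA cells (SD, n = 2), and 3.42 ± 0.0035 and 1.25 ± 0.32 in SOX4-shRNA cells. It fell by 0.82 ± 0.14 and 0.98 ± 0.14 log2 units (SE; limma adjusted p = 0.0153 and 0.00574). E2F7, a repressor of E2F targets, went the other way. It rose by 0.67 ± 0.12, from 11.1 ± 1.0 to 18.1 ± 0.97 FPKM (limma adjusted p = 0.0181), and by 0.56 ± 0.12, from 11.7 ± 0.72 to 17.7 ± 1.4 FPKM (adjusted p = 0.0321).

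A list of CDK inhibitors and growth arrest genes, which also holds D-type cyclins and another gene that drives proliferation, had 9 fitted genes. As restored 3 rose and 0 fell in scrambled-shRNA cells, and 4 rose and 1 fell in SOX4-shRNA cells. Of all genes tested 4.96% and 5.32% rose, and 2.14% and 1.95% fell. After the GC correction 6 rose and 2 fell, and 5 rose and 1 fell. Over all genes these shares were then 17.4% and 16.6% rising and 12.1% and 12.4% falling. CDKN2B, the CDK4 and CDK6 inhibitor p15, rose in both, from 10.6 ± 0.20 to 19.1 ± 0.37 FPKM and from 12.1 ± 0.48 to 20.2 ± 2.2 FPKM (limma adjusted p = 0.00903 and 0.0116). GADD45B, a stress and growth arrest gene, rose from 21.7 ± 2.0 to 37.5 ± 0.22 FPKM and from 19.0 ± 3.2 to 51.5 ± 3.2 FPKM (adjusted p = 0.0176 and 0.00122). BTG1, an antiproliferative gene, rose from 6.37 ± 0.88 to 10.6 ± 0.29 FPKM and from 4.95 ± 0.57 to 7.88 ± 0.30 FPKM (adjusted p = 0.0246 and 0.0353). In SOX4-shRNA cells the cyclin D genes moved apart: CCND1 rose from 80.1 ± 3.4 to 110.0 ± 2.7 FPKM and CCND2 fell from 93.1 ± 5.1 to 58.7 ± 2.7 FPKM (adjusted p = 0.0317 and 0.00921). The difference of these responses between the kinds of cell passed for 0 genes by limma.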
